A study of Mus musculus with 15 samples.

Results

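The genes described here are 9 of the 24420 gene symbols in a count table of mouse cerebellum: the heme synthesis genes Alas1, Alas2, Alad, Uros, Urod, Cpox, Ppox and Fech, and Hmox1, which breaks heme down. They were chosen by their place in the pathway, and Alad because its level was already known to differ between the groups, with the question whether it moves alone. Its values are therefore given as a description without a test, and the calls are read on the other 8. All 9 passed the filter on low counts that left 16808 genes for testing.

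RNA of whole cerebellum was compared between 3 groups of 5 libraries. The wild type group (WT) is labelled strain FVB/nJ and 9 weeks old. The Atxn1[82Q] group (82Q) carries an expanded Atxn1 allele, which the series' design text calls a knockin, and has the same strain and age labels. The third group (82Q_M120A) carries Atxn1[82Q] and CalphaLoxM120A, an altered catalytic subunit of protein kinase A, and is 8 weeks old, its strain label naming C57BL/6J together with FVB/nJ as a mix. Its kinase allele, strain and age cannot be told apart, and no group has the kinase allele alone. The sources used here do not name the cells in which each allele is expressed, nor say whether replicates are separate animals, so p-values reflect only how far these samples scatter, which may be technical.

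Heme, the iron-holding ring of hemoglobin, cytochromes and many enzymes, is built by a chain of enzymes that begins and ends in the mitochondrion and runs through the cytosol between. The opening step, 5-aminolevulinate synthase, comes in a general form (Alas1) and an erythroid form (Alas2), and it limits the flow in most tissues. Alad joins a pair of 5-aminolevulinate molecules into porphobilinogen and is the classic target of lead poisoning. Its copy number is known to differ between inbred mouse strains. Heme oxygenase 1 (Hmox1) opens the ring to biliverdin, iron and carbon monoxide and is induced by oxidative stress and by heme itself.

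Levels are given in CPM, the read count divided by the library total in megacounts and by its TMM scaling factor, as mean ± SD with n = 5. Total counts per library ran from 38322749 in WT-5 (the WT library in column place 5) to 99422994 in 82Q_M120A-1. Before the results, 2 features of the libraries bear on what follows. Markers of choroid plexus, a secretory tissue next to the cerebellum, summed to 37.7 to 2620 CPM in WT, 43.1 to 2810 in 82Q and 23.0 to 2070 in 82Q_M120A, so its amount differed widely within each group and was not balanced between them. Its most abundant marker, Ttr, was at 1510 to 2410 CPM in 4 WT libraries and 18.3 in WT-4. Ttr was at 1940 and 2600 CPM in 2 of the 82Q libraries and 24.2 to 269 in the others, and in 82Q_M120A at 1920 CPM in library 1 and 8.3 to 20.7 in the others. All 8 markers lay lower in each comparison, with median log2 fold changes of -0.63 (82Q against WT), -1.95 (82Q_M120A against WT) and -1.21 (82Q_M120A against 82Q). Of these markers 0 were called by edgeR or DESeq2 and 0 had an unadjusted p under 0.05. Of all genes edgeR called 18.7%, 36.4% and 18.9%. The coefficient of variation of Ttr was 58.9% in WT, 123% in 82Q and 216% in 82Q_M120A, so the lack of calls does not show equal amounts. The part of choroid plexus in the results was not tested. The 82Q_M120A libraries also differ from each other in genes of known strain variation, as described further on. The tissue label was checked against cerebellar markers: in WT the granule cell gene Cbln3 was at 1520 ± 43.6 CPM and the Purkinje cell gene Calb1 at 1040 ± 45.1 CPM.

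The sequences before a start site of Alad and of Alas2 are shown because these genes had the 2 largest differences among the members, and Alas2 is the erythroid form. Both are RefSeq sequences on GRCm38.p6, the mm10 assembly, written 5′ to 3′ on the gene's strand. Capitals mark AGATAA on either strand, the core bound by GATA factors. The Alad stretch is chr4:62520064-62520313 on the minus strand, and the Alas2 stretch is chrX:150547167-150547374 on the plus strand, ending where the first annotated exon begins.
Alad: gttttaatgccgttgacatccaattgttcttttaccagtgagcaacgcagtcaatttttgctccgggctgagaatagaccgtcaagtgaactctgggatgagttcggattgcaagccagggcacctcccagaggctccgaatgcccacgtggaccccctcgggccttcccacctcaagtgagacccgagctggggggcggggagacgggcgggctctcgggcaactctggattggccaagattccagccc
Alas2: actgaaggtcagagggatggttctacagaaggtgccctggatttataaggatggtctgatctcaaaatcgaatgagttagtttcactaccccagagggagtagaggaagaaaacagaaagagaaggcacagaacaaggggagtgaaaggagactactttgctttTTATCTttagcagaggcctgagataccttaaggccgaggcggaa
The Alas2 stretch holds 1 match, read on the opposite strand, and the Alad stretch holds 0. Alad has another RefSeq start, whose window (chr4:62519910-62520159) overlaps an annotated Alad exon and is not printed. That window also holds 0. AGATAA is found on either strand in 9.99% of the 32851 windows of 250 bases before RefSeq starts. Of the 9 members 7 matched the table and 2, Fech and Hmox1, are named only. Among the 7, only the Alas2 window held AGATAA. A match describes letters and shows no binding.

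Alad stood highest of the members per length of transcript. Divided by kilobases of all annotated exons joined, its level in WT was 60.1 ± 1.8 CPM per kb. Urod followed with 20.4 ± 0.315 and Alas1 with 11.1 ± 0.185. Ppox (7.64 ± 0.166), Uros (6.46 ± 0.237) and Cpox (5.48 ± 0.173) came next, then Alas2 (4.2 ± 1.74), Fech (4.06 ± 0.0995) and Hmox1 (2.28 ± 0.315). Alas2 could not be placed against its neighbours Cpox and Fech beyond its own spread. Transcripts that skip some of these exons would raise a gene's true level per length, and Fech, with 13838 bases of joined exons, is the longest.

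**Figure D1:**
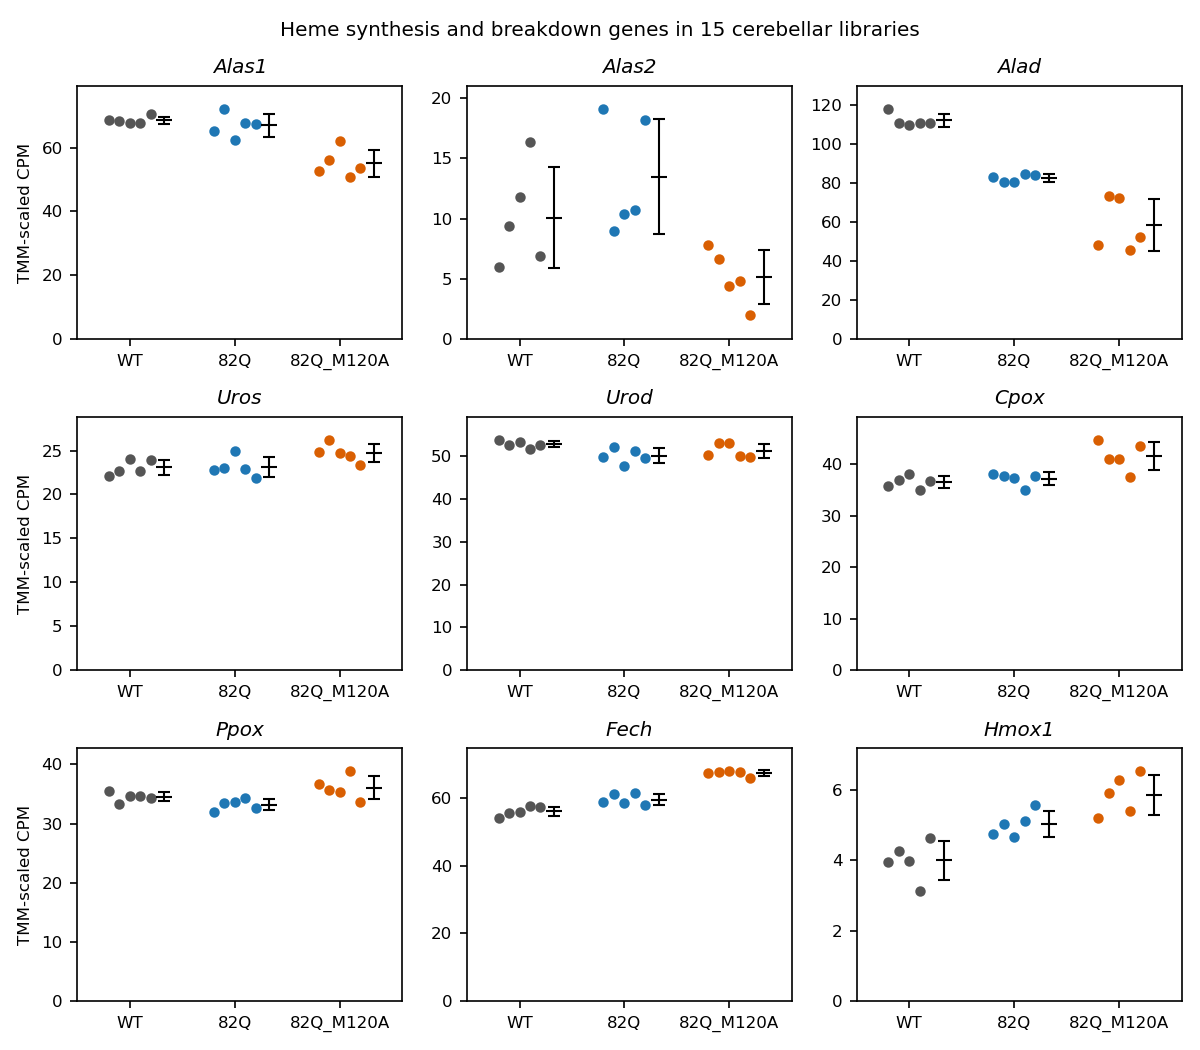
Level of each of the 9 genes in TMM-scaled CPM (vertical axis, from 0) in the 5 libraries of each group (horizontal axis), 1 point per library, with mean and SD beside them. The Alad groups do not overlap, Fech is narrow and highest in 82Q_M120A, and Alas2 is spread widely in all 3 groups.

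In 82Q against WT, 2 of the 8 other members rose, 0 fell and 6 were not called. That is 25%, against 18.7% of all 16808 genes (8.63% higher and 10.1% lower), so the share lies near the background. The members that rose were Fech and Hmox1, and both had groups without overlap, as did 16.6% of all genes. The count was 1 without WT-1, WT-2, WT-3, 82Q-2, 82Q-4 or 82Q-5. In 82Q_M120A against WT 3 rose (Cpox, Fech and Hmox1), 1 fell (Alas1) and 4 were not called, 50% against a background of 36.4% (18.6% higher and 17.8% lower; 6 were called with library size only), and 3 had groups without overlap, as did 25.3% of all genes. In 82Q_M120A against 82Q 3 rose (Cpox, Ppox and Fech) and 2 fell (Alas1 and Alas2), 62.5% against 18.9% (10.3% higher and 8.63% lower), and 3 had groups without overlap, as did 12.1% of all genes. This count was 3 without 82Q-1 or 82Q-5, where the Alas2 and Ppox calls were lost. The comparisons share groups and are not independent of each other. Median log2 fold changes of the 8 were 0.01, 0.08 and 0.11, beside 0.013, 0.006 and -0.003 for all genes tested.

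**Figure D2:**
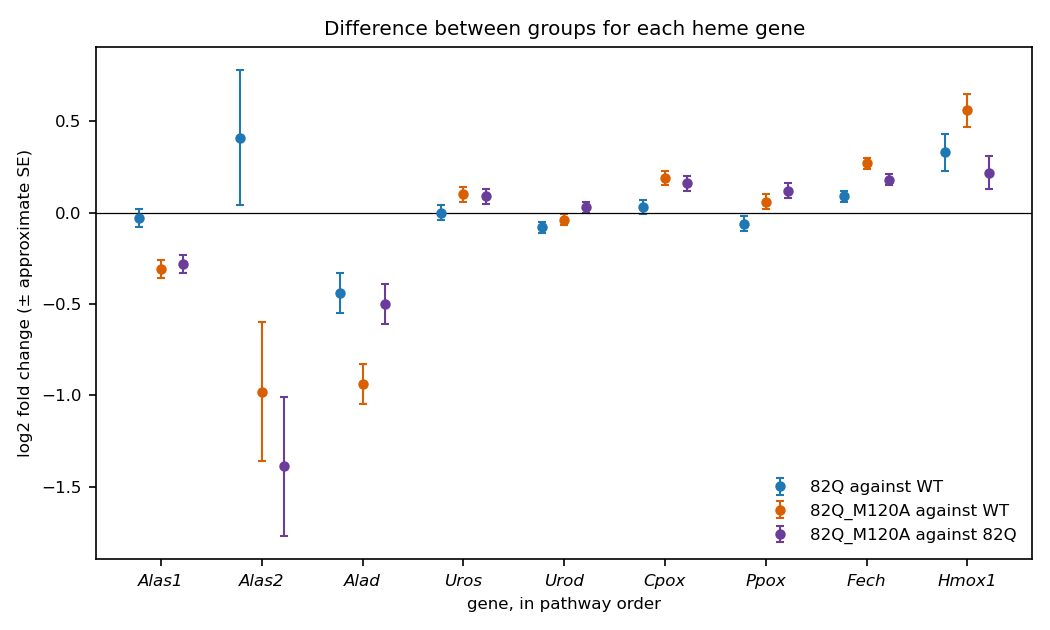
Log2 fold change (vertical axis) of each gene in pathway order (horizontal axis) in the 3 comparisons, with approximate standard errors as bars. Alad is below 0 in all 3, Alas1 in those with 82Q_M120A, and Fech and Hmox1 are above 0 throughout.

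Alad (chr4:62509169-62519918) was at 118, 111, 110, 111 and 111 CPM in WT-1 to WT-5. It was at 83.2, 80.7, 80.7, 84.6 and 83.9 CPM in 82Q-1 to 82Q-5, and at 48.1, 73.6, 72.3, 45.9 and 52.5 in 82Q_M120A-1 to 82Q_M120A-5. The groups form 3 steps without overlap, narrow in WT and 82Q and wide in 82Q_M120A, where libraries 2 and 3 are higher than the other 3. Group means were 112 ± 3.37, 82.6 ± 1.83 and 58.5 ± 13.4 CPM. Alad was thus 1.36-fold lower in 82Q than in WT (log2 difference -0.44 ± 0.11, SE) and 1.92-fold lower in 82Q_M120A than in WT (-0.94 ± 0.11). Between 82Q_M120A and 82Q the difference was 1.41-fold (-0.50 ± 0.11). Its coefficient of variation was 3% in WT, 2.21% in 82Q and 23% in 82Q_M120A. The standard errors come from a fit in which all 3 groups share 1 estimate of spread. The scatter of 82Q_M120A therefore also enters the standard error of 82Q against WT. No other member lay lower in 82Q than in WT without overlap.

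The genes next to Alad were then read, all 11 tested ones within 250 kb. Hdhd3, a hydrolase-like gene 5702 bases away, was at 11.6, 11.3, 11.4, 10.7 and 11.6 CPM in WT-1 to WT-5. In 82Q-1 to 82Q-5 it was at 9.35, 10.6, 9.09, 9.77 and 9.51 CPM. In the 82Q_M120A libraries it was at 5.26, 7.62, 8.14, 4.89 and 4.56 CPM. As for Alad, the Hdhd3 groups do not overlap and are lowest in 82Q_M120A, though WT and 82Q nearly touch, and again 82Q_M120A-2 and 82Q_M120A-3 are the highest of their group. It fell in 82Q_M120A against WT (log2 fold change -0.89 ± 0.13, adjusted p = 5.66e-05, edgeR) and against 82Q (-0.67 ± 0.13, adjusted p = 0.00195). In 82Q against WT its groups did not overlap, but it was not called (-0.23 ± 0.13, adjusted p = 0.252, edgeR); fitted on these 2 groups alone it was (adjusted p = 0.00607).

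Bspry, which encodes a B-box and SPRY domain protein, lies beyond Hdhd3, 11871 bases from Alad. Its level was 3.06, 3.5, 3.66, 2.84 and 3.23 CPM in WT and 2.82, 2.83, 2.99, 2.81 and 2.66 CPM in 82Q. The 82Q_M120A libraries were at 0.825, 1.7, 1.87, 0.703 and 0.594 CPM, with libraries 2 and 3 once more the highest. Bspry fell in 82Q_M120A against WT (2.86-fold, log2 fold change -1.52 ± 0.25, adjusted p = 0.00019, edgeR) and against 82Q (2.48-fold, -1.31 ± 0.25, adjusted p = 0.00158). It was not called in 82Q against WT (-0.21 ± 0.24, adjusted p = 0.606).

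On the outer sides of these 3 genes the nearest neighbours did not share the step. Pole3, a histone-fold subunit of DNA polymerase epsilon 2731 bases from Alad, had means of 14.9 ± 0.397 (WT), 14.1 ± 0.713 (82Q) and 14.3 ± 0.889 CPM (82Q_M120A). It passed no test (adjusted p = 0.295, 0.344 and 0.85, edgeR). Wdr31, on the far side of Bspry, was at 2.07 ± 0.284, 2.48 ± 0.193 and 2.54 ± 0.346 CPM and was higher in 82Q_M120A than in WT (0.29 ± 0.11, adjusted p = 0.0472), a call lost in 12 of the 15 fits without 1 library. Within the window 2 of 11 genes passed the test in 82Q against WT (18.2%, against 18.7% of all genes), with Fkbp15 higher and Slc31a2 lower (25.5 to 21.7 CPM, adjusted p = 0.00403). In 82Q_M120A against WT 3 rose (Fkbp15, Cdc26 and Wdr31) and 3 fell (Slc31a2, Hdhd3 and Bspry), 54.5% against 36.4%. The Cdc26 call was lost in 7 of the 15 fits without 1 library, without the low-count filter (adjusted p = 0.0588) and in the 2 groups alone (0.0642). Against 82Q the 2 called were Hdhd3 and Bspry, 18.2% against 18.9%.

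**Figure D3:**
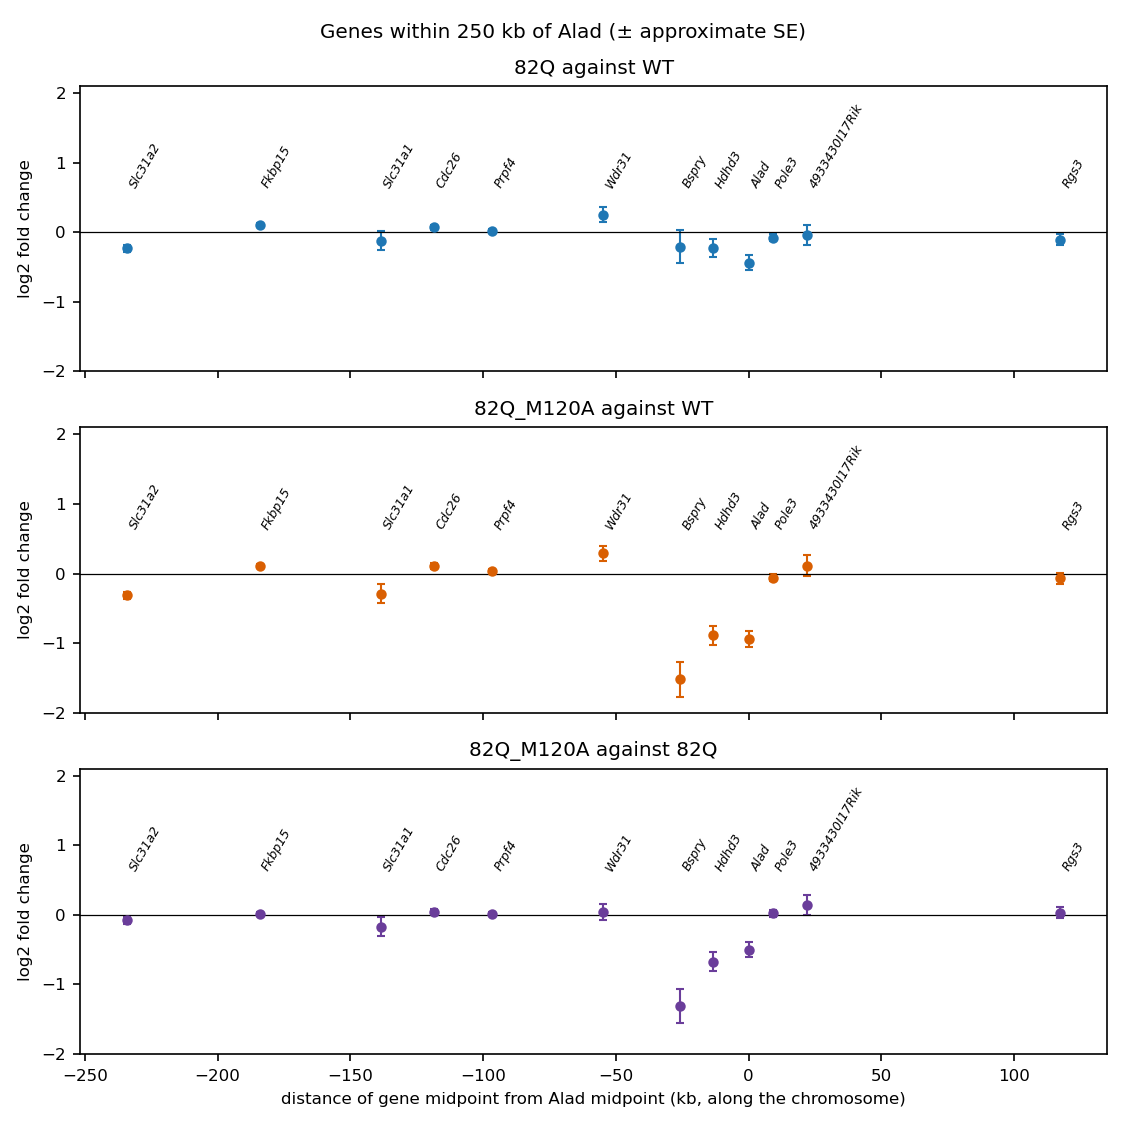
Log2 fold change with approximate standard error (vertical axis) of Alad and the 11 tested genes near it against the distance of gene midpoints from that of Alad in kb (horizontal axis), 1 panel per comparison. In both comparisons with 82Q_M120A the genes Bspry, Hdhd3 and Alad lie together below the rest, which against WT lie between -0.31 and 0.29.

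Relative to the WT mean, Alad was at 0.428, 0.655, 0.644, 0.408 and 0.467 in 82Q_M120A-1 to 82Q_M120A-5 and Hdhd3 at 0.465, 0.672, 0.718, 0.432 and 0.403. Alad counts per Hdhd3 count ranged from 9.55 to 10.3 in WT and from 8.88 to 11.5 in 82Q_M120A, which overlap, and from 7.6 to 8.91 in 82Q, which lies below WT. The step in 82Q was therefore deeper for Alad than for Hdhd3, a difference that was not tested. Gene counts do not measure gene copies or separate alleles, and strain, age and kinase allele cannot be told apart in 82Q_M120A. WT and 82Q carry the same strain label.

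**Figure D4:**
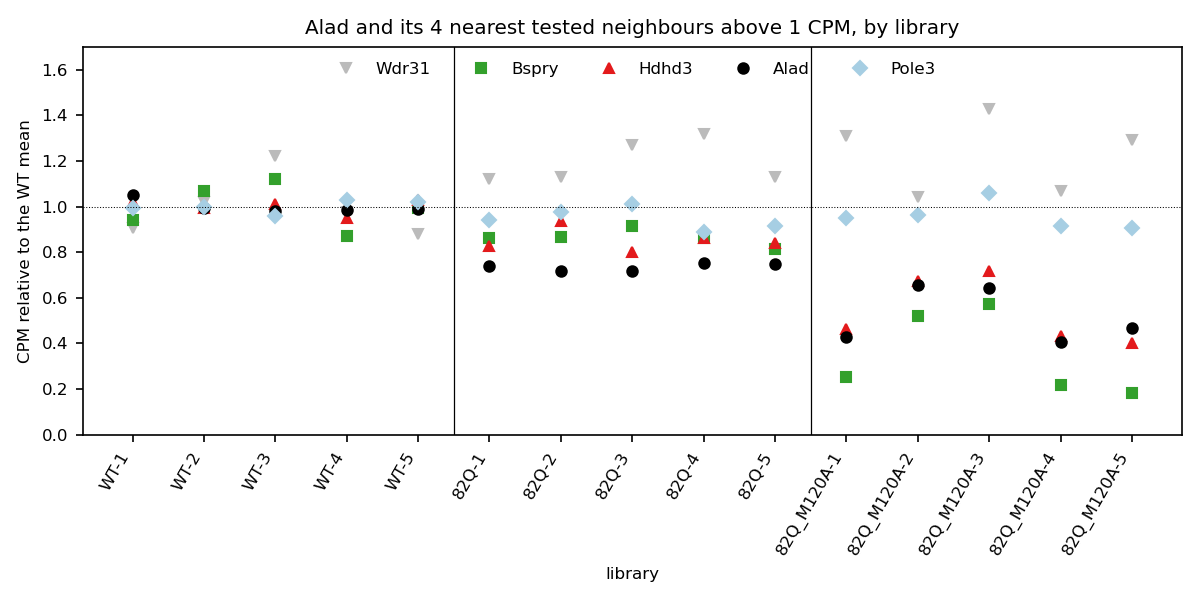
CPM relative to the WT mean (vertical axis) for Alad, Hdhd3, Bspry, Pole3 and Wdr31 in each of the 15 libraries (horizontal axis). In 82Q_M120A the points of Alad, Hdhd3 and Bspry go up together in libraries 2 and 3, while Pole3 lies between 0.904 and 1.06 there.

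Among 13278 genes with at least 1 CPM, predicted models left out, those with a profile over the 15 libraries most like that of Alad were Cmtm7, Hdhd3, Hpca, Plcd3 and Sowahb. The measure was the root mean square difference of log2 CPM, each gene centred on its own mean. It was 0.128 for Cmtm7 (a MARVEL domain membrane protein, chromosome 9), 0.132 for Hdhd3, 0.18 for Hpca (the calcium sensor hippocalcin, chromosome 4), 0.196 for Plcd3 (a phospholipase C, chromosome 11) and 0.198 for Sowahb (chromosome 5). The spread of Alad about its own mean was 0.432 on this scale. Cmtm7 went from 5.81 ± 0.314 CPM in WT to 4.61 ± 0.275 in 82Q and 3.07 ± 0.526 in 82Q_M120A. In 82Q_M120A-1 to 82Q_M120A-5 it was at 3.19, 3.35, 3.74, 2.44 and 2.66 CPM, with libraries 2 and 3 highest. The same 2 were highest for Hpca (77.8, 101, 88.7, 69.7 and 74.8 CPM) and Sowahb (41.2, 49.5, 49.4, 38.4 and 48.7 CPM). For Plcd3 they were libraries 2 and 5. High levels in libraries 2 and 3 were thus not confined to genes near Alad, though likeness to Alad chose these genes. Of the other members Alas1 came closest, at place 255, and Hmox1 and Alas2 were far down, at 12550 and 12798.

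Both synthase genes that open the pathway fell in 82Q_M120A against 82Q, and Alas1 also against WT. Alas1 (chr9:106233455-106248654) was at 68.6, 68.3, 67.6, 67.6 and 70.4 CPM in WT-1 to WT-5. It was at 65.3, 72.1, 62.3, 67.6 and 67.5 CPM in 82Q, and at 52.8, 56.2, 62.0, 50.7 and 53.5 in 82Q_M120A. All 82Q_M120A libraries lie below all of the other groups, and within the group libraries 2 and 3 are highest, as for Alad. Alas1 fell by 0.31 on the log2 scale against WT (SE 0.05, adjusted p = 4.54e-05, edgeR) and by 0.28 against 82Q (SE 0.05, adjusted p = 0.000361). It was not called in 82Q against WT (-0.03 ± 0.05, adjusted p = 0.693). Ppargc1a, a coactivator known to induce Alas1 in liver, fell in the same comparisons, from 90.6 ± 6.53 in WT and 94.9 ± 2.26 in 82Q to 82.4 ± 6.03 CPM (adjusted p = 0.0433 and 0.00837, edgeR). Its call against WT was lost in 10 of the 15 fits without 1 library. The part of Ppargc1a in the Alas1 differences was not tested.

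Alas2 (chrX:150547375-150570638) was at 5.98, 9.35, 11.8, 16.4 and 6.92 CPM in WT-1 to WT-5 and at 19.1, 8.99, 10.4, 10.7 and 18.2 CPM in 82Q. The 82Q_M120A libraries were at 7.77, 6.67, 4.39, 4.84 and 2.01 CPM. All lie below the lowest 82Q library, while they overlap WT. Alas2 fell in 82Q_M120A against 82Q (2.63-fold, log2 fold change -1.39 ± 0.38, adjusted p = 0.0218, edgeR), but the call was lost without 82Q-1 (0.053), 82Q-5 (0.0521) or 82Q_M120A-3 (0.0504). Against WT the difference of -0.98 ± 0.38 missed the threshold (adjusted p = 0.059, edgeR) and passed it by DESeq2 (adjusted p = 0.0252). The difference between 82Q and WT was 0.41 ± 0.37 (adjusted p = 0.502).

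Because Alas2 belongs to red cell precursors, erythroid markers were read beside it. Of 16 listed markers 14 are in the table and 6 of these, all adult globin symbols (Hba-a1, Hba-a2, Hbb-bs, Hbb-bt, Hbb-b1 and Hbb-b2), are listed at 0 in all 15 libraries, which need not mean that the RNA was absent. The summed level of the list was 198 to 209 CPM in WT, 195 to 209 in 82Q and 185 to 200 in 82Q_M120A, nearly all of it Add2 (166 ± 4.49 in WT) and Slc25a37 (32.3 ± 1.68), which brain cells also express. Of the 6 tested markers 1 rose and 0 fell in 82Q against WT (16.7%, against 18.7% of all genes). In 82Q_M120A 1 rose and 2 fell against WT (50% against 36.4%), and 0 rose and 2 fell against 82Q (33.3% against 18.9%). Some erythroid markers were thus lower in the group where Alas2 was lower.

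The marker that rose was Slc4a1, the red cell anion exchanger, at 0.999 ± 0.148 in WT, 2.72 ± 0.407 in 82Q and 2.82 ± 0.492 CPM in 82Q_M120A. It rose against WT in both (1.44 ± 0.14 and 1.5 ± 0.14, adjusted p = 6.28e-07 and 2.45e-07). Klf1 (0.475, 0.478 and 0.513 CPM) and Tal1 (1.15, 1.31 and 1.28 CPM) were not called, and Gata1 (at most 0.0193 CPM in any group mean) was not tested. The part of blood in the Alas2 differences was not tested.

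**Figure D5:**
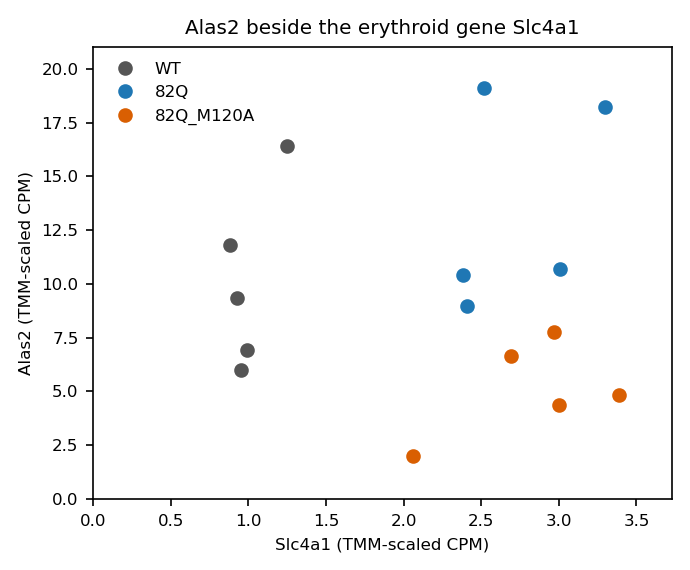
Alas2 (vertical axis) against Slc4a1 (horizontal axis), both in TMM-scaled CPM, 1 point per library coloured by group. Slc4a1 separates WT from the other groups, whereas the Alas2 levels of WT overlap those of both.

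The middle steps of the pathway showed small differences. Uros (chr7:133686243-133710072), which closes the ring as uroporphyrinogen III, ranged from 22.1 to 24 CPM in WT, 21.9 to 25 in 82Q and 23.4 to 26.2 in 82Q_M120A. Urod (chr4:116989965-116994413), which trims the side chains of that ring, ranged from 51.7 to 53.8, 47.7 to 52.2 and 49.9 to 53.2 CPM. Neither was called by edgeR over all libraries with TMM factors, and their groups overlapped in all 3 comparisons. Uros was called in 82Q_M120A against WT with library size only (log2 fold change 0.15, adjusted p = 0.00949, edgeR) and against 82Q without 82Q-3 (0.12, adjusted p = 0.0414). Urod lies on the same chromosome as Alad and did not show its steps. Ppox (chr1:171275990-171281186), the oxidase of the next-to-last step, was at 34.5 ± 0.75, 33.2 ± 0.911 and 36.1 ± 1.95 CPM. It rose in 82Q_M120A against 82Q only narrowly (0.12 ± 0.04, adjusted p = 0.0308, edgeR), with overlapping groups, and the call was lost in a fit of these 2 groups alone (adjusted p = 0.07) and without 82Q-1 (0.0707), 82Q-5 (0.0691), 82Q_M120A-1 (0.0573) or 82Q_M120A-4 (0.086).

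Cpox (chr16:58670292-58717636), the mitochondrial enzyme before Ppox, was at 35.8, 36.9, 38, 35.0 and 36.8 CPM in WT and at 38, 37.7, 37.3, 35.0 and 37.8 CPM in 82Q. It was at 44.7, 41.0, 41.0, 37.6 and 43.5 CPM in 82Q_M120A, where 4 of 5 libraries lie above all of the other groups and library 4 lies among them. Cpox rose against WT (1.14-fold, 0.19 ± 0.04, adjusted p = 0.00232, edgeR) and against 82Q (0.16 ± 0.04, adjusted p = 0.0129) and was not called in 82Q against WT (adjusted p = 0.745).

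Fech, ferrochelatase, puts iron into the ring and ends the pathway. Its level was 54.2, 55.6, 56.0, 57.6 and 57.3 CPM in WT, 58.8, 61.3, 58.7, 61.5 and 57.9 in 82Q and 67.5, 67.9, 68.1, 67.8 and 66.1 in 82Q_M120A. These are again 3 steps without overlap, upward where those of Alad go downward, and with no spread between the 82Q_M120A libraries beyond a coefficient of variation of 1.15%. Fech rose against WT (1.2-fold, 0.27 ± 0.03, adjusted p = 4.5e-07, edgeR) and against 82Q (1.13-fold, 0.18 ± 0.03, adjusted p = 0.000129). The rise in 82Q against WT was 1.06-fold (0.09 ± 0.03, adjusted p = 0.0302); it was not called in a fit of the 2 groups alone (0.0715) or without WT-1 (0.0794), WT-2 (0.0568), WT-3 (0.0667), 82Q-2 (0.0766) or 82Q-4 (0.085).

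Hmox1 (chr8:75093621-75100589) was at 3.96, 4.28, 3.99, 3.14 and 4.63 CPM in WT and at 4.76, 5.03, 4.65, 5.13 and 5.58 CPM in 82Q. In 82Q_M120A it was at 5.2, 5.92, 6.28, 5.4 and 6.54 CPM. Every library of the 82Q and 82Q_M120A groups lies above every WT library, and these groups overlap each other. Hmox1 rose in 82Q (1.26-fold, 0.33 ± 0.10, adjusted p = 0.0195, edgeR; without 82Q-5 0.0559) and in 82Q_M120A (1.47-fold, 0.56 ± 0.09, adjusted p = 0.000178). The difference between them was 0.22 ± 0.09 (adjusted p = 0.108).

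Microglia and macrophages, a known site of Hmox1, had higher markers in the same groups. The 16 markers summed to 147 to 165 CPM in WT, 235 to 253 in 82Q and 217 to 272 in 82Q_M120A. In 82Q against WT 13 of 16 rose and 0 fell (81.2%, against 18.7% of all genes). In 82Q_M120A against WT 11 rose and 2 fell (81.2% against 36.4%). None of the 16 markers was at 0. Csf1r, the receptor on which microglia depend, rose from 27.8 ± 1.81 to 44.7 ± 1.73 and 43.7 ± 2.75 CPM. Cd163, the hemoglobin receptor of perivascular macrophages, was at 2.45 ± 0.502, 2.11 ± 0.238 and 2.42 ± 0.611 CPM and was not called. In bulk RNA, more cells of a type and more RNA per cell cannot be told apart, and the part of microglia in the Hmox1 rise was not tested. Endothelial markers summed to 215 to 241, 212 to 240 and 244 to 276 CPM, with 1 of 8 higher and 1 lower against WT in both groups. That is 25% in each, against 18.7% of all genes for 82Q and 36.4% for 82Q_M120A.

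Some members share sequence with other genes, and no source used here says whether strand was used in counting, so reads of overlapping genes cannot be told apart. Alas2 lies within the annotated span of Apex2, which was at 3.9 ± 0.149, 4.19 ± 0.164 and 4.94 ± 0.32 CPM and was higher in 82Q_M120A, where Alas2 was lower (0.34 ± 0.06 against WT, adjusted p = 0.000349, edgeR). The annotated span of Alas1 holds at least part of an exon of 4930500F10Rik, whose level is not given here. The ends of Uros, Cpox and Ppox overlap Bccip, Gpr15 and B4galt3. None of these 3 was called in any comparison, the smallest adjusted p being 0.0872 for Gpr15 in 82Q_M120A against 82Q.

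The rest of the pathway was read in the same way. Of 18 tested genes of heme synthesis, transport, binding and breakdown outside the members, 1 fell in 82Q against WT (5.56%, against 18.7% of all genes). In 82Q_M120A against WT 4 fell and 1 rose (27.8% against 36.4%), and against 82Q 2 fell (11.1% against 18.9%). In a list of 18 these shares lie only a few genes from the background, and they are not read as a result about the list. Hmox2, the constitutive heme oxygenase, was at 51.1 ± 0.616, 49.9 ± 1.13 and 50.9 ± 2.72 CPM and was not called. Pgrmc2, a heme-binding membrane protein, fell from 64.5 ± 1.98 to 58.0 ± 1.41 in 82Q (-0.15 ± 0.03, adjusted p = 0.00218, edgeR) and 56.1 ± 2.2 CPM in 82Q_M120A (-0.20 ± 0.03, adjusted p = 9.56e-05).

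Clpx, a mitochondrial unfoldase that activates the Alas enzymes and takes part in their turnover, fell in 82Q_M120A to 53.5 ± 1.98 CPM, from 60.9 ± 2.15 in WT (-0.19 ± 0.04, adjusted p = 0.000811) and 61.5 ± 3.0 in 82Q (-0.20 ± 0.04, adjusted p = 0.000991). Biliverdin reductase gene Blvra, which acts after the oxygenases, fell against WT (-0.17 ± 0.04, adjusted p = 0.00637), and the mitochondrial transporter gene Abcb10 fell against 82Q (-0.13 ± 0.03, adjusted p = 0.00765). The other called genes, named after their values were seen, were the heme A synthesis genes Cox10 (-0.14) and Cox15 (0.11), in opposite directions in 82Q_M120A against WT (adjusted p = 0.0195 for both).

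Among 16 tested genes of iron handling, 2 fell in 82Q against WT (12.5%, against 18.7% of all genes). Among them was the transferrin receptor gene Tfrc (adjusted p = 0.0333, edgeR), whose call was lost in 8 of the 15 fits without 1 library. In 82Q_M120A against WT 4 rose and 2 fell (37.5% against 36.4%), and against 82Q 2 rose and 2 fell (25% against 18.9%). The iron exporter gene Slc40a1 was at 6.69 ± 0.88, 6.62 ± 0.452 and 10.3 ± 0.474 CPM (0.62 ± 0.08 against WT, adjusted p = 7.83e-06, and 0.63 ± 0.08 against 82Q, adjusted p = 1.75e-05, edgeR). Transferrin gene Trf, which in brain is made largely by oligodendrocytes, was at 293 ± 39, 354 ± 41.7 and 563 ± 81.9 CPM (0.94 ± 0.11 and 0.67 ± 0.11, adjusted p = 9.05e-06 and 0.000626). Oligodendrocyte markers stood beside it, 6 of 6 higher in 82Q_M120A against WT (100%, against 36.4% of all genes). Against 82Q 2 of 6 were higher (33.3% against 18.9%). Their part in the Trf rise was not tested. Ferritin heavy chain gene Fth1 rose against WT (0.30 ± 0.06, adjusted p = 0.00122).

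The mitochondrial iron importer gene Slc25a37, which feeds ferrochelatase, fell from 32.3 ± 1.68 in WT and 32.0 ± 1.88 in 82Q to 27.1 ± 2.1 CPM in 82Q_M120A (-0.25 ± 0.05 and -0.24 ± 0.05, adjusted p = 0.00149 and 0.00508, edgeR). Its direction is opposite to that of Fech in both comparisons. The ferrireductase gene Steap3 also fell in both, named after its values were seen (-0.42 ± 0.14 and -0.52 ± 0.14, adjusted p = 0.0266 and 0.0138), the first lost without WT-2 (0.09), 82Q_M120A-4 (0.0658) or 82Q_M120A-5 (0.0602).

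Hmox1 is a known target of the activator NRF2 (Nfe2l2) and the repressor BACH1, and 12 genes of that system and of Alas1 control were read. In 82Q against WT 2 rose (16.7%, against 18.7% of all genes), Bach1 from 26.4 ± 0.743 to 28.9 ± 0.419 CPM (0.13 ± 0.04, adjusted p = 0.0184, edgeR; without WT-3 0.0621) and Nfe2l2 from 26.0 ± 1.57 to 29.5 ± 2.2 (0.18 ± 0.05, adjusted p = 0.0198; without WT-1 0.0532, WT-4 0.0619 or 82Q-5 0.0573). In 82Q_M120A against WT Bach1 rose and Gclc, Txnrd1 and Ppargc1a fell (33.3%, against 36.4% of all genes). The Txnrd1 call was lost in 6 and the Ppargc1a call in 10 of the 15 fits without 1 library, and 2 to 4 of the list were then called. Against 82Q the 5 called genes, Ppargc1a, Srxn1, Nfe2l2, Txnrd1 and Gclc, all fell (41.7% against 18.9%), though between 2 and 5 of the list were called when 1 library was left out. Nqo1, a standard NRF2 target, was at 9.34 ± 0.662, 9.63 ± 0.72 and 9.54 ± 0.51 CPM and was not called by edgeR. By DESeq2 3 genes of the list were called for 82Q against WT; for 82Q_M120A it called 4 against WT and 6 against 82Q.

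Genes known to differ in copy number or expressed allele between inbred strains were read for the variation among 82Q_M120A libraries. Of 11 listed, Hdhd3 among them, 0 were called in 82Q against WT by edgeR over all 15 libraries (0%, against 18.7% of all genes). There were also 0 by DESeq2, 1 was at an unadjusted p under 0.05 by edgeR, and 2 were called in an edgeR fit of these groups alone. In 82Q_M120A against WT 3 of 11 were called (27.3%, against 36.4% of all genes). Against 82Q 6 of 11 were called (54.5% against 18.9%), but 3 in a fit of these groups alone and 3 without 82Q-1 or 82Q-4. Pttg1, the securin gene, rose in both (log2 fold change 3.15 and 3.07, adjusted p = 7.51e-09 and 4.06e-08, edgeR), with 1.46 to 2.06 CPM in the WT and 82Q libraries and 12.4, 10.6, 20.4, 21 and 11.1 CPM in 82Q_M120A-1 to 82Q_M120A-5. In the same order of libraries Gabra2, a GABA receptor subunit gene, was at 56.4, 36.6, 61.7, 61 and 48.4 CPM. Glo1, the glyoxalase gene, was at 106, 101, 91.8, 95.8 and 82.9 CPM, and Btbd9 at 61.2, 62.9, 66.5, 67.4 and 66.5 CPM. These 3 genes were called against 82Q only, with no test of a difference between the comparisons. Ide, the insulin-degrading enzyme gene, was at 120 CPM in 82Q_M120A-1 and 75.4 to 80.2 in the other 4, and Fgfbp3 at 15.5 CPM there and 8.82 to 10 in the others. Wdfy1 was at 80.5 CPM in 82Q_M120A-5 and at 49.7 to 50.9 in the others, beside 70.7 ± 2.54 in WT. The transhydrogenase gene Nnt, disrupted in C57BL/6J, was at 30.2, 26.4, 14.4, 30.7 and 21.1 CPM in 82Q_M120A-1 to 82Q_M120A-5. Which 82Q_M120A libraries were high thus varied from gene to gene on this list.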

How the data were processed

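Cerebellar RNA of 15 samples was sequenced from TruSeq RNA libraries, per the labels' protocols; the annotation, the use of strand and the handling of multi-mapped reads are not stated there. Per the submitters' processing notes, reads were handled with CASAVA 1.8, HISAT2 2.0.1, featureCounts and Subread on mm10, with R 3.3.3 and DESeq2 1.14.1 also named. The deposited table holds raw read counts per gene symbol for 15 columns, whose names show the group without a replicate; each library is named here by its group and its column's place. From these counts, 16808 genes passed filterByExpr (count minimum 10 and total 15) and were fitted in edgeR 4.0.16 (limma 3.58.1, R 4.3.3) with TMM factors, group as the only factor and robust quasi-likelihood tests, two-sided, Benjamini-Hochberg adjusted p under 0.05 for a call. Standard errors are the absolute log2 fold change over the square root of F. The common biological coefficient of variation was 0.105. A script with the same fit was tested on simulated data. Coordinates and exon lengths are from GENCODE M21 on GRCm38, the mm10 assembly.

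The members and gene lists (heme pathway, iron handling, NRF2 and BACH1, strain-variable genes, and erythroid, microglia, endothelial, choroid plexus, astrocyte, oligodendrocyte and cerebellar markers) were chosen with earlier results of these data known. Genes were named by rule: all members, all genes within 250 kb of Alad, up to 3 called genes per list and comparison with the smallest adjusted p, erythroid markers with counts, the 2 most abundant of each other marker list, and the 5 profiles most like Alad; genes named outside it, such as Cd163 and Nqo1, were chosen after their values were seen. Alternatives were DESeq2 1.42.0, RLE factors, library size only, no filter, the 2 groups alone and leaving out each library. Some genes of these lists are not reported here.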

Additional observations from a re-analysis of the deposited data

Results flagged for a closer look

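Within a group of 5, a library was singled out when its gap to the nearest other library took more than 0.71 of the group's range, which chance alone does in about 1 of 20 groups, and 96 groups were read. Alad was at 118 CPM in WT-1 against 110 to 111 in the other WT libraries, and Cpox at 35 CPM in 82Q-4 against 37.3 to 38. Slc31a1, a copper transporter gene near Alad, was at 51.2 CPM in 82Q_M120A-1 against 33.6 to 36.3. That library is the 1 of its group with high choroid plexus markers (Ttr at 1920 CPM against 8.3 to 20.7), and Slc31a1 was also lowest of WT in WT-4 (35.2 CPM against 46.4 to 52.2), where Ttr was at 18.3 CPM; the part of choroid plexus in it was not tested. In the same library Ide was at 120 CPM against 75.4 to 80.2 and Fgfbp3 at 15.5 against 8.82 to 10. Wdfy1 was at 80.5 CPM in 82Q_M120A-5 against 49.7 to 50.9. Entpd4 was at 1.91 CPM in WT-1 against 0.792 to 0.911, and Cox7a2l at 87.2 CPM in WT-5 against 80.3 to 81.3.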

How the results depend on the processing

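No paired analysis was possible because the columns carry no replicate number. The calls of Alas1, Cpox and Fech in both comparisons with 82Q_M120A, of Hmox1 in 82Q_M120A against WT, and of Hdhd3 and Bspry in both comparisons with 82Q_M120A held under every alternative run. Alad was lower in 82Q than in WT by a log2 difference of -0.44, or -0.39 with library size only. Calls among the 8 other members were 2 in 82Q against WT (1 in a fit of the 2 groups alone, 1 to 2 without 1 library), 4 in 82Q_M120A against WT (6 with library size only, which adds Uros and Ppox, 5 by DESeq2, 4 to 5 without 1 library) and 5 in 82Q_M120A against 82Q (3 to 6). In 82Q against WT the other pathway genes had 1 call (2 with RLE factors or DESeq2, 5 with library size only, 1 to 2 without 1 library), iron handling 2 (1 without the filter, 4 by DESeq2, 0 to 3 without 1 library) and the NRF2 and BACH1 list 2 (4 with library size only, 1 to 2 without 1 library). That list had 4 in 82Q_M120A against WT (2 in the 2 groups alone, 2 to 4 without 1 library) and 5 against 82Q (2 to 5). Strain-variable genes had 0 in 82Q against WT (2 in the 2 groups alone) and 6 in 82Q_M120A against 82Q (3 in the 2 groups alone, 3 to 6 without 1 library). Signs turned only in differences that were not called: with library size only, Alas1 in 82Q against WT (0.018) and Urod in 82Q_M120A against WT (0.006); Uros in 82Q against WT in the 2 groups alone (-0.002) and without WT-1 (-0.012), WT-2 (-0.003), WT-4 (-0.003) or 82Q-3 (-0.028; 0.021 at most without 1 library); and in 82Q_M120A against 82Q Pole3 without 82Q-4 (-0.004) or 82Q_M120A-3 (-0.020; 0.041 at most) and Wdr31 without 82Q_M120A-3 (-0.021; 0.091 at most). The cause was not tested. With library size only, 73% of all called genes were higher in 82Q against WT, against 46.2%, and 68.8% against 51.1% in 82Q_M120A against WT. Intervals from depth were not computed. The least counted member was Hmox1, with 1339 counts over the WT libraries together and 173 in WT-5.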

Other observations

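Markers of other cell types not taken up above gave these counts. Of 6 astrocyte markers 2 rose and 1 fell against WT in both 82Q and 82Q_M120A. That is 50% in each, against 18.7% of all genes for 82Q and 36.4% for 82Q_M120A. Between these groups 0 were called by edgeR or DESeq2, with 1 at an unadjusted p under 0.05, beside 18.9% of all genes called by edgeR. Slc1a3, the glutamate transporter of Bergmann glia, fell from 1600 ± 61 CPM in WT to 1300 ± 44.6 in 82Q and 1380 ± 120 in 82Q_M120A, while the water channel gene Aqp4 rose from 360 ± 14.7 to 506 ± 34.9 and 521 ± 45.5. Oligodendrocyte markers rose in 5 of 6 cases in 82Q against WT (83.3%, against 18.7% of all genes), with Mbp at 2610 ± 227 and 3270 ± 328 CPM. Of 8 markers of Purkinje and granule cells 3 fell in 82Q against WT (37.5%, against 18.7% of all genes). In 82Q_M120A against WT 4 rose and 3 fell (87.5% against 36.4%). The 3 that fell were the Purkinje cell genes Pcp2, Calb1 and Car8 in both. Their log2 fold changes were -1.02, -1.15 and -1.37 in 82Q and -0.97, -1.06 and -0.89 in 82Q_M120A. Those that rose were Neurod1, Cbln1, Cbln3 and Zic1. The part of Purkinje cells in the Alad differences was not tested.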
